A study of Rattus norvegicus with 9 samples.

Results

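Expression of 10 interferon-induced genes, Irf7, Rsad2, Mx1, Mx2, Oas1a, Ifit2, Ifit3, Isg15, Slfn4 and Rtp4, was examined in pancreatic islets isolated from Zucker Diabetic Fatty rats, all male. The genes were taken by their symbol in the platform annotation, which gave 13 probe sets out of 31042 and 10 genes out of 14217 named on the array. They were picked with earlier results of these arrays known, and which values guided the choice is not on record. All 3 comparisons between the groups are therefore treated as having been used, and the differences of the 10 genes are given as a description, without p-values.

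All rats were fa/fa, which means that they carried 2 defective copies of the leptin receptor gene. This genotype disposes to obesity and diabetes, and the diabetic state of these rats was not examined here. All were fed Purina 5008 diet. The treated group received rosiglitazone, a drug that activates PPAR gamma, from week 5 to week 9 and was sampled at 9 weeks of age. It was given as powdered Avandia tablets in the food, 3 mg for each kg of body weight. The withdrawal group had the same treatment, was then without drug for 2 weeks, and islets were taken at 11 weeks. The untreated group never received the drug, and its islets were taken at 13 weeks. There were 3 arrays in each group, called biological replicates in the labels, which do not state whether an array held RNA of 1 rat. Every group had an age of its own, so treatment and age cannot be told apart in any comparison, and no lean rats were included.

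Interferons are cytokines released when cells sense viral or misplaced nucleic acid. Type I interferons bind a receptor whose kinases, JAK1 and TYK2, activate transcription factors that bind the interferon-stimulated response element in the promoters of target genes. The targets encode antiviral enzymes, GTPases, a ubiquitin-like protein and further transcription factors such as IRF7, and interferon signatures in islets are well known from type 1 diabetes.

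Promoter sequences are shown because the genes are grouped by their response to 1 signal. They span 250 bases before to 50 bases after the annotated start, in RefSeq assembly GRCr8, and 6 of the 10 genes had an entry (Rsad2, Ifit3, Slfn4, Mx1, Irf7 and Oas1a). The core of the response element, read as GAAA, any 2 bases and GAAA again, was searched on both strands and was found in 4 of these 6, against 3.92% of all 33469 promoters of the same length. The 4 are printed 5′ to 3′ on the strand of the gene, with the matched bases in capitals.
Rsad2, chr6:48788071-48788370, minus strand: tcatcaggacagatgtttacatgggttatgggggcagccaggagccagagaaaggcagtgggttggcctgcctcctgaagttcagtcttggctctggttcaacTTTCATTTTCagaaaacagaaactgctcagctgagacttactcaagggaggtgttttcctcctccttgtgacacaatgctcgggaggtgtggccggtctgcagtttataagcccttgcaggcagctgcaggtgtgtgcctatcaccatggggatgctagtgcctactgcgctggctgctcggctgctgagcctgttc
Irf7, chr1:205799974-205800273, minus strand: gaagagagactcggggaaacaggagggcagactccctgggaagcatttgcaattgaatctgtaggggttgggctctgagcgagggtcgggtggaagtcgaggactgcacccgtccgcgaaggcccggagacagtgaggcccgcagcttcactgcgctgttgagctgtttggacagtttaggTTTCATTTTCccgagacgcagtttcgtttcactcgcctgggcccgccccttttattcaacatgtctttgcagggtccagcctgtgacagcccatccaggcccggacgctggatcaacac
Ifit3, chr1:241527076-241527375, plus strand: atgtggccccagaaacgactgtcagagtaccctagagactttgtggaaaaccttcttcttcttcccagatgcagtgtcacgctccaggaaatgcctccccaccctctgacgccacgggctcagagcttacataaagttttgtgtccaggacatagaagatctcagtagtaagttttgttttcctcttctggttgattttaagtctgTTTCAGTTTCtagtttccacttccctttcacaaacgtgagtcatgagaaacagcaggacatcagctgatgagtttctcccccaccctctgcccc
Oas1a, chr12:41330216-41330515, plus strand: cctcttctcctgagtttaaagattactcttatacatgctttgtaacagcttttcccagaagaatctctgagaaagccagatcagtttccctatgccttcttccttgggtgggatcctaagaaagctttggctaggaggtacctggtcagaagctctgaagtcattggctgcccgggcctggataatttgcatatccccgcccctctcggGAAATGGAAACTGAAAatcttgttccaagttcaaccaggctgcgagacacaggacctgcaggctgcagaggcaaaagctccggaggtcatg
In Rsad2 and Irf7 the match read TTTCATTTTC and began 147 and 69 bases before the start. In Ifit3 it read TTTCAGTTTC and began 44 bases before the start. Oas1a held 2 matches that overlapped, GAAATGGAAA and GAAACTGAAA, beginning 41 and 35 bases before the start. No such core lay in the windows of Slfn4 and Mx1, which says only that these letters are not there. A match is a description of the sequence and not evidence of binding.

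The values are log2 expression values as deposited. Array medians were alike, from 5.736 to 5.806, but the spread over probe sets was wider on treated arrays (SD 1.836 to 1.997) than on withdrawal (1.649 to 1.718) or untreated arrays (1.661 to 1.77). This moved bright probe sets more than dim ones, and the median over the tested probe sets was 0.16 between treated and untreated (first minus second), −0.02 between withdrawal and untreated and −0.19 between withdrawal and treated arrays. Relative to these medians, each difference between treated and untreated arrays given below would lie 0.16 lower, and each difference between withdrawal and treated arrays 0.19 higher. Such a single shift does not suit all 10 genes. In the brightness deciles of Mx1, Rsad2, Ifit3, Slfn4, Mx2 and Oas1a the median was −0.04 to −0.01 for treated minus untreated. For withdrawal minus treated it was 0.04 to 0.07 there. In the deciles of Ifit2, Isg15, Rtp4 and Irf7 these medians were 0.1 to 0.2 and −0.26 to −0.12. Values after quantile normalization, which makes the arrays' distributions identical, are set beside the deposited ones. The brightest probe set of each of the 10 genes lay between the 28.3th and 70.8th percentile of brightness, so none was among the brightest on the array. Probe sets in the lowest 33.3% by mean were not tested. That left 9 genes, Mx1 falling below the limit, and 10 of the 13 probe sets. Beta cell markers (summed level 15.54 to 15.95 over the 9 arrays, on the log2 scale) and acinar markers (16.7 to 16.85) were both bright, so the preparations held exocrine RNA as well as islet RNA.

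All 10 genes had a lower mean in treated than in untreated islets, with differences from −0.33 to −1.35 and a median of −0.62, or −0.67 after quantile normalization. In 7 of the 10 every treated array was below every untreated array. Among the 9 of them that were tested, without Mx1, this held for 6, against 9.01% of all tested genes. In withdrawal islets the genes parted. Slfn4 and Rtp4 stood at or above their untreated level, Ifit3 and the brighter of 2 Ifit2 probe sets stayed at or below their treated level, and the other 6 had a mean between that of the treated and that of the untreated arrays. RNA from whole islets does not tell fewer cells of a type from less RNA per cell.

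**Figure D1:**
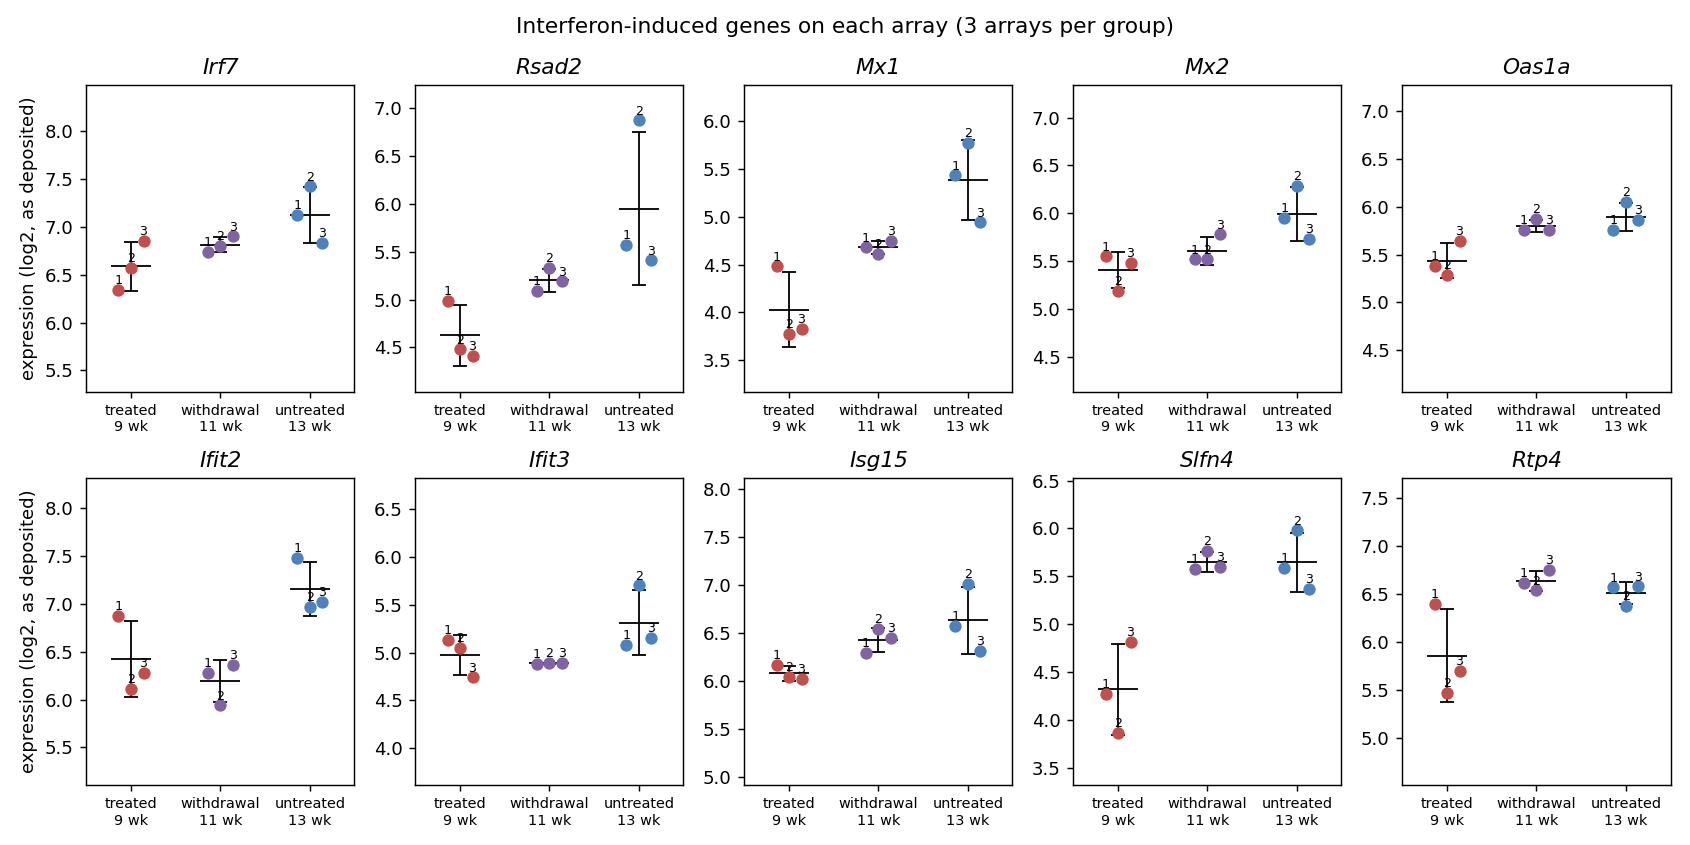
Log2 expression as deposited of the brightest probe set of each gene on each array, with numbers giving the replicate and bars the mean ± SD of 3 arrays; each panel spans the same range of log2 units. Treated arrays lie lowest for most genes, withdrawal arrays match untreated arrays for Slfn4 and Rtp4 and treated arrays for Ifit2, and the second untreated array is the highest for 8 of 10 genes.

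Irf7 is the transcription factor that drives the interferon genes once the first interferon has been sensed, and is itself interferon-induced. Its log2 values were 6.34, 6.57 and 6.85 on treated, 6.74, 6.80 and 6.90 on withdrawal and 7.12, 7.42 and 6.83 on untreated arrays. The third treated and the third untreated array had nearly the same value, so these groups overlapped. Treated minus untreated was −0.54 ± 0.17 (SE, n = 3 per group), a level 1.45-fold lower, and −0.65 after quantile normalization. For withdrawal the difference was −0.31 ± 0.17 against untreated and 0.22 ± 0.17 against treated arrays. The former was −0.17 without the second untreated array and the latter 0.10 without the first treated array. With arrays weighted by their quality, treated minus untreated was −0.27.

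Rsad2 encodes viperin, an enzyme that makes a chain-terminating nucleotide against viral polymerases. It measured 4.99, 4.48 and 4.41 on treated, 5.09, 5.33 and 5.19 on withdrawal and 5.57, 6.87 and 5.41 on untreated arrays. The 3 groups did not overlap and lay in the order treated, withdrawal, untreated, but the second untreated array stood far above the other two of its group. Treated minus untreated was −1.32 ± 0.31, or 2.5-fold lower, and withdrawal minus untreated was −0.74 ± 0.31. Leaving out the second untreated array moved the first of these to −0.86 and the second to −0.28.

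The Mx genes encode dynamin-like GTPases, of which rodent Mx1 acts in the nucleus and rodent Mx2 in the cytoplasm. Mx1 and Mx2 lie near each other with 1 protein-coding gene between them, and they are close paralogs, so some cross-hybridisation of their probes is possible. Mx1 measured 4.48, 3.78 and 3.83 on treated, 4.68, 4.61 and 4.75 on withdrawal and 5.43, 5.77 and 4.94 on untreated arrays. Again no value of one group reached into another, and withdrawal arrays were in between. Treated minus untreated was −1.35 ± 0.22, the widest gap among the 10 genes (2.54-fold lower), and withdrawal minus treated was 0.65 ± 0.22. Mx1 was below the brightness limit, so its values come from a fit without that limit.

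The brighter Mx2 probe set measured 5.55, 5.19 and 5.48 on treated, 5.52, 5.52 and 5.78 on withdrawal and 5.95, 6.29 and 5.73 on untreated arrays. Treated arrays were all below untreated ones, by −0.59 ± 0.16 on average, while withdrawal arrays overlapped both. A second Mx2 probe set, at the 2.6th percentile of brightness, gave −0.32 ± 0.16 for treated minus untreated and 0.02 ± 0.16 for withdrawal minus untreated, where the brighter one gave −0.38 ± 0.16, or −0.23 without the second untreated array.

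Oas1a encodes an oligoadenylate synthetase, which on sensing double-stranded RNA makes the messenger that activates the nuclease RNase L. Its values were 5.38, 5.29 and 5.64 on treated, 5.76, 5.87 and 5.76 on withdrawal and 5.76, 6.05 and 5.86 on untreated arrays. Every treated array was below every array of the other groups, and withdrawal and untreated arrays overlapped. Treated arrays differed by −0.45 ± 0.13 from untreated ones, and withdrawal arrays by 0.36 ± 0.13 from treated and −0.09 ± 0.13 from untreated ones. Oas1a belongs to a rat family of close copies, and its probe set may also take up RNA of those.

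Ifit2 and Ifit3 are neighbouring genes for tetratricopeptide proteins that bind viral RNA or partner proteins and restrain translation. The brighter Ifit2 probe set measured 6.87, 6.11 and 6.28 on treated, 6.28, 5.94 and 6.36 on withdrawal and 7.48, 6.97 and 7.02 on untreated arrays. Untreated arrays were above both other groups, which overlapped. Withdrawal minus untreated was −0.96 ± 0.21, or 1.95-fold lower, and treated minus untreated was −0.74 ± 0.21. The former was the widest gap in that comparison among the brightest probe sets of the 10 genes. A dimmer Ifit2 probe set measured 5.38, 5.30 and 5.54 on treated, 5.63, 5.66 and 5.66 on withdrawal and 6.19, 6.09 and 6.22 on untreated arrays. With the dimmer probe set withdrawal minus untreated was −0.52 ± 0.12, narrower than the −0.74 of Rsad2 and the −0.7 of Mx1. Both probe sets put untreated arrays highest, but they disagreed on withdrawal minus treated, at 0.25 ± 0.12 for the dimmer and −0.22 ± 0.21 for the brighter. The negative value rested on the first treated array, since without it the brighter probe set gave 0.0.

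Ifit3 measured 5.13, 5.05 and 4.74 on treated, 4.88, 4.89 and 4.89 on withdrawal and 5.08, 5.70 and 5.15 on untreated arrays. Its treated and untreated arrays overlapped, and only the second untreated array stood clearly apart. Treated minus untreated was −0.33 ± 0.17, and −0.14 without that array, the smallest difference of the 10 genes by their brightest probe sets. Withdrawal minus untreated was −0.42 ± 0.17, and −0.23 without that array.

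Isg15 encodes a ubiquitin-like protein that is joined to other proteins or secreted. It measured 6.17, 6.04 and 6.02 on treated, 6.29, 6.54 and 6.45 on withdrawal and 6.57, 7.01 and 6.31 on untreated arrays. Treated arrays were tightly grouped below all others, and the other groups overlapped. The differences were −0.55 ± 0.17 for treated minus untreated, 0.35 ± 0.17 for withdrawal minus treated and −0.20 ± 0.17 for withdrawal minus untreated. Without the second untreated array the first was −0.36 and the last −0.01.

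Slfn4 belongs to the Schlafen family and is known in mouse as an interferon-induced gene of myeloid cells, and the annotation also lists it under the name Slfn3. Its brighter probe set measured 4.27, 3.87 and 4.82 on treated, 5.58, 5.77 and 5.60 on withdrawal and 5.59, 5.98 and 5.37 on untreated arrays. Treated arrays were far below all 6 others, and withdrawal and untreated arrays overlapped. Treated minus untreated was −1.33 ± 0.22 (2.51-fold lower), withdrawal minus treated 1.33 ± 0.22 (2.52-fold higher), and withdrawal minus untreated 0.01 ± 0.22. The dimmer probe set, below the brightness limit, gave −0.61 ± 0.13, 0.69 ± 0.13 and 0.09 ± 0.13 in the same order. Of the rest of the Schlafen family, Slfn2 and Slfn5 were measured, and neither passed the test in any comparison, the smallest adjusted p being 0.148 for Slfn5 at −0.48 ± 0.24 for treated minus untreated. After quantile normalization Slfn5 was −0.67 with adjusted p = 0.029.

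Rtp4 encodes a transporter protein that helps receptors reach the cell surface and, in mouse, restrains interferon responses. It measured 6.40, 5.47 and 5.70 on treated, 6.62, 6.54 and 6.75 on withdrawal and 6.57, 6.38 and 6.58 on untreated arrays. The first treated array reached the range of the untreated arrays and the other two were well below it. Withdrawal minus treated was 0.78 ± 0.20, treated minus untreated −0.65 ± 0.20 and withdrawal minus untreated 0.13 ± 0.20. Rtp4 was the gene for which the second untreated array was the lowest rather than the highest of the untreated group, a place that array also held for Ifit2.

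**Figure D2:**
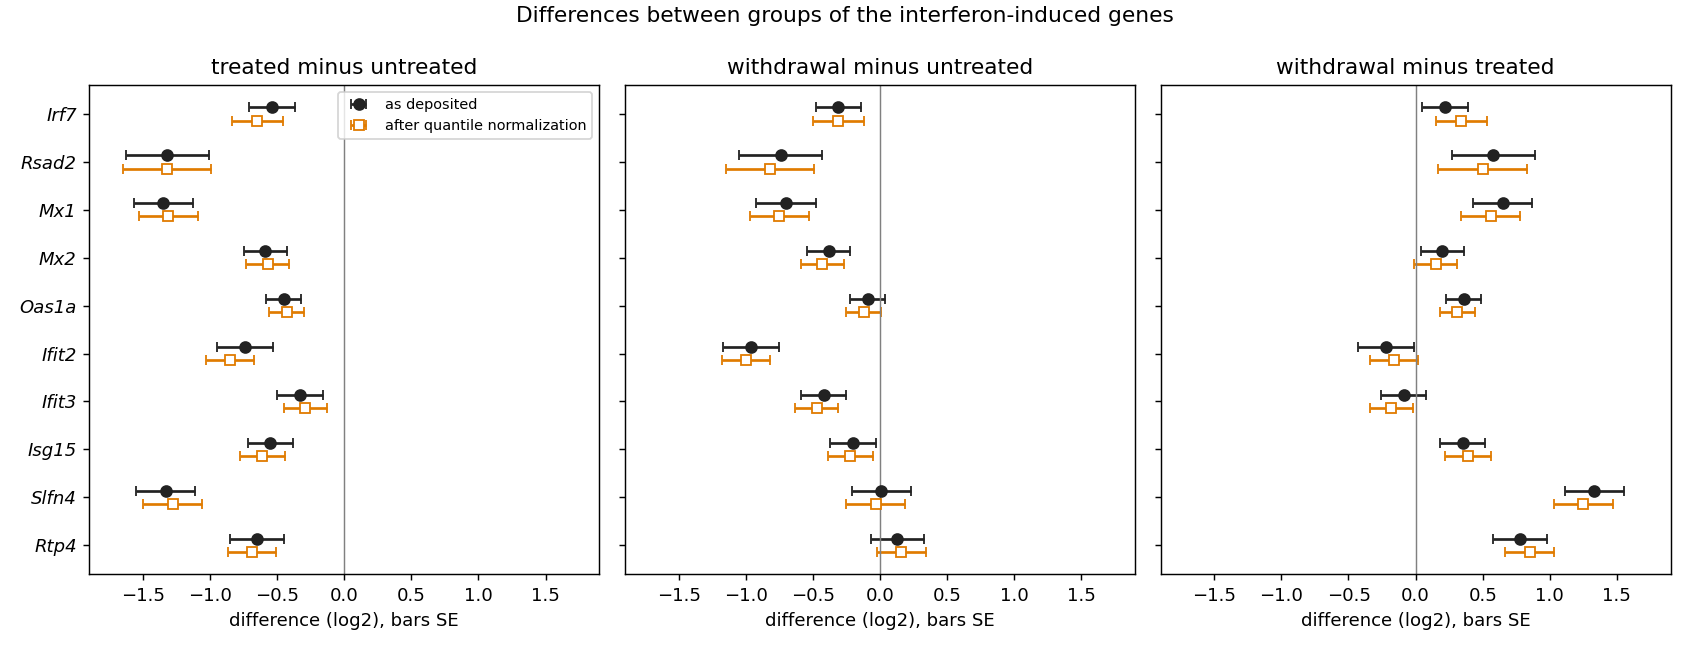
Differences between groups in log2 units with SE for each gene, as deposited (filled circles) and after quantile normalization (open squares). All 10 genes lie below 0 for treated minus untreated on both scales, and Slfn4 and Rtp4 lie near 0 for withdrawal minus untreated.

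In the fit of all probe sets by limma, 8 of the 9 tested genes passed as lower in treated than in untreated islets and none as higher, where 5.74% of all tested genes passed as lower and 24.0% as higher. Of all tested probe sets 28.1% passed in either direction. After quantile normalization 8 again passed as lower, against 8.88% of all genes. Because the genes were picked with these results known, nothing is read from the counts. Values did not overlap, with treated arrays lower, for 6 of the 9, against 9.01% of all genes. The count of 8 became 2 without the second treated array, 2 without the second untreated, 3 without the first untreated and 5 without the third treated array, while the mean of each of the 10 genes stayed lower in treated islets whichever array was left out. For withdrawal against untreated islets, 0 of 9 passed in limma, against 0.189% of all genes called lower, 0.00861% called higher and 0.159% of probe sets called in either direction. At an unadjusted p under 0.05 there were 4 of the 9, where 8.75% of all genes were. One gene, Ifit2, passed after quantile normalization, against 0.508% of all genes called lower. Withdrawal arrays lay wholly below untreated arrays for 3 of the 9, against 11.6% of all genes. For withdrawal against treated islets 3 of 9 passed, Slfn4, Rtp4 and Oas1a, all higher in withdrawal, against 8.46% of all genes called higher, 37.9% called lower and 43.8% of probe sets called in either direction. After quantile normalization 2 passed, against 13.3%. Without the second untreated array, which enters through the shared estimate of the spread, 5 passed. Withdrawal arrays lay wholly above treated arrays for 5 of the 9, against 11.2%. The comparisons share arrays and are not independent.

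The 10 genes also varied from array to array within a group. After each gene was centred on its mean over the 9 arrays, their average was −0.22, −0.59 and −0.40 on the treated arrays, −0.03, 0.01 and 0.07 on the withdrawal arrays and 0.34, 0.67 and 0.14 on the untreated arrays. No untreated array was as low as any withdrawal array on this average, and no withdrawal array as low as any treated one. The second untreated array was the highest of all 9 for 8 of the 10 genes, with the first untreated array highest for Ifit2 and the third withdrawal array for Rtp4. The second treated array was the lowest of all 9 for 5 genes. The withdrawal arrays lay closest together on this average.

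**Figure D3:**
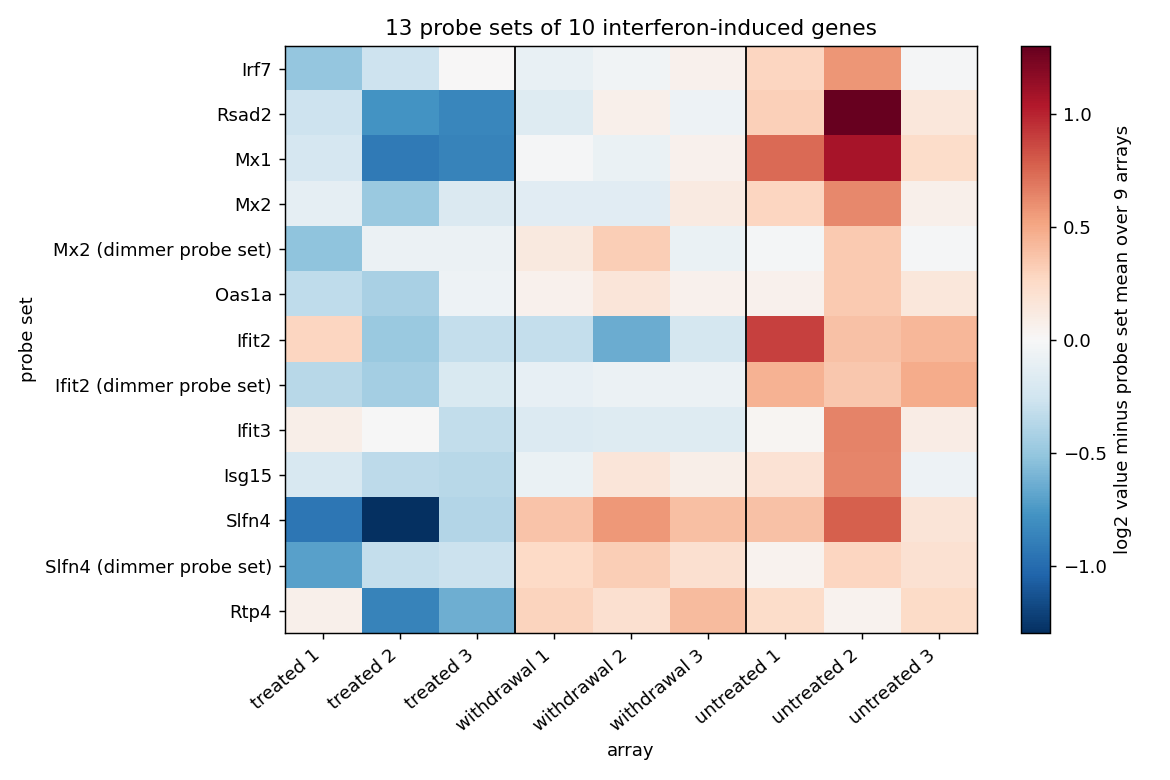
Log2 value minus its mean over the 9 arrays for the 13 probe sets (rows) on each array (columns), blue below and red above the mean, with black lines between the groups. The second untreated array is red throughout, at its strongest for Rsad2 and Mx1, and the second treated array is darkest blue for Slfn4.

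Mx2, Mx1, Isg15 and Rsad2 kept step with the average of the other 9 genes from array to array. Over the 9 arrays, which share group means and array spread, their Pearson r with that average was 0.94, 0.98, 0.92 and 0.92. When each value was taken as a deviation from its group mean, r was 0.93, 0.88, 0.83 and 0.81. The second untreated array was the highest of all 9 for each of these genes, and r without it was not computed. Ifit2, Rtp4 and Irf7 followed the other genes less within groups, with r of 0.16, 0.22 and 0.36. These are descriptions over 9 arrays with no test. Among 11493 other genes, those with the profile most like the average of the 10 were Tacc3 (r = 0.968), Gsdma (0.961), Lgals9 (0.952), Smad9 (0.952), Mn1 (0.930), Aldh1a3 (0.920), Adam23 (0.920) and Sdcbp2 (0.915). Of these 8, only Lgals9 was on a list of interferon pathway genes. By deviations from group means, the closest were Tacc3 (r = 0.959), Cit, Tgm4, Tcirg1, Cldn18, Serpinb6b, Cdca8 and Hspb8 (0.929), none on those lists.

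Markers of other cells were measured beside these genes. Of all tested genes, limma called 24.0% higher and 5.74% lower in treated than in untreated islets. In withdrawal against treated islets 8.46% were called higher and 37.9% lower. The summed level of 13 macrophage and myeloid markers, of which 11 were above the brightness limit, ran from 11.28 to 13.11 on treated, 12.37 to 12.75 on withdrawal and 11.97 to 12.29 on untreated arrays (log2 of the sum). Its order on treated arrays, 13.11, 11.28 and 12.26, was that of the average of the 10 genes, whereas on untreated arrays, at 12.14, 11.97 and 12.29, the array highest for the interferon-induced genes had the lowest myeloid level. That order on treated arrays was not particular to myeloid markers. Stellate and matrix markers (13.99, 12.46 and 13.27) and plasmacytoid dendritic, T lymphocyte, duct and beta cell markers shared it. Neutrophil, B lymphocyte, endothelial and acinar markers did not. Limma called 1 of the 11 lower in treated than in untreated islets and 2 higher in withdrawal than in treated islets. T lymphocyte markers, all 8 above the limit, ran from 8.65 to 8.89 on treated, 9.21 to 9.39 on withdrawal and 9.06 to 9.16 on untreated arrays, and 3 of the 8 were called lower in treated than in untreated islets and 5 higher in withdrawal than in treated islets. The 1 B lymphocyte marker above the limit, of 2 measured, was called lower in treated than in both other groups, and the summed level was 5.58 to 5.87, 5.97 to 6.34 and 5.96 to 6.31. Of 7 beta cell markers, 3 were called higher in treated than in untreated islets and 4 lower in withdrawal than in treated islets. For 5 markers of the other islet hormones, summed at 14.78 to 14.95, 13.68 to 13.96 and 13.8 to 14.18, these counts were 3 and 5. Of 4 neutrophil markers measured, S100a8, S100a9 and Camp were below the brightness limit, and the summed level was 6.58 to 6.77, 6.77 to 6.86 and 6.72 to 6.84 in the same order of groups. Markers of plasmacytoid dendritic cells, a main source of interferon alpha, were 3 on the array with 2 above the limit, and their summed level was 7.84 to 8.37, 8.06 to 8.22 and 8.13 to 8.24. The part of these cells in the differences was not tested.

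The rest of the interferon response did not share one direction. Of 76 further interferon-induced genes listed, 55 were on the array and 47 were tested. Between treated and untreated islets 4 rose, 4 fell and 39 did not pass, where 24.0% of all genes rose and 5.74% fell. Their median difference was 0.06, where that of all genes was 0.22, and 20 of the 47 were below 0, against 28.8% of all genes. On the quantile scale 8 fell and 1 rose, where 8.88% of all genes fell. The median there was −0.15 against 0.02 for all genes, and 32 of the 47 were below 0, against 46.8% of all genes. With the first treated array left out, 3 rose and 10 fell. Without the first untreated, the second untreated or the third untreated array, 4, 3 and 4 passed in all.

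The 4 that fell were Lgals9, Cmpk2, Rnf213 and Cxcl9. Cmpk2, a mitochondrial nucleotide kinase whose gene is next to Rsad2 in the rat genome, measured 6.43, 6.57 and 6.48 on treated, 7.62, 7.37 and 7.12 on withdrawal and 7.33, 7.40 and 7.10 on untreated arrays. Treated arrays were below all others, and the difference from untreated was −0.78 ± 0.15 (adjusted p = 0.00453). Lgals9, which encodes the lectin galectin-9, measured 6.78, 6.74 and 6.68 on treated, 7.06, 6.93 and 7.27 on withdrawal and 7.53, 7.80 and 7.25 on untreated arrays, and fell by 0.79 ± 0.15 (adjusted p = 0.00495). Rnf213, a large ubiquitin ligase, fell by 0.46 ± 0.12 (adjusted p = 0.0178). Cxcl9, a chemokine induced by interferon gamma, fell by 0.43 ± 0.13 (adjusted p = 0.0272). All 4 also fell after quantile normalization, by 0.89, 0.95, 0.56 and 0.41 for Cmpk2, Lgals9, Rnf213 and Cxcl9.

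The 4 that rose were Isg20, an exonuclease that degrades viral RNA, Adar, the enzyme that edits adenosine in double-stranded RNA, Ube2l6, the conjugating enzyme for Isg15, and the secreted glycoprotein gene Lgals3bp. Isg20 measured 7.91, 7.48 and 7.56 on treated, 6.72, 6.84 and 6.92 on withdrawal and 6.79, 6.83 and 6.97 on untreated arrays, opposite to the 10 genes. It rose by 0.79 ± 0.14 (adjusted p = 0.00347), and its quantile-normalized difference was 0.56. The other three rose by 0.38 ± 0.12 (Adar), 0.60 ± 0.18 (Ube2l6) and 0.60 ± 0.20 (Lgals3bp) as deposited, and differed by 0.03, 0.37 and 0.04 after quantile normalization, where none of them passed. Adar, Ube2l6 and Lgals3bp, and below Irgm and Ly6e, fall outside the rule for named genes and were chosen after their values were seen.

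Between withdrawal and treated islets 4 of the 47 rose and 6 fell, where 8.46% of all genes rose and 37.9% fell. The share that rose was thus near that of all genes. Their median was −0.10, where that of all genes was −0.27. On the quantile scale 3 fell and 9 rose, where 13.3% of all genes rose. The median there was 0.12 against −0.04, so the sign of this median depended on the scaling. Those that rose were Cmpk2 by 0.88 ± 0.15 (adjusted p = 0.00144), Cxcl9 by 0.70 ± 0.13 (adjusted p = 0.00192), the immunity-related GTPase gene Irgm by 0.67 ± 0.15 (adjusted p = 0.00457) and Rnf213 by 0.35 ± 0.12 (adjusted p = 0.0362). Those that fell included Isg20, by 0.82 ± 0.14, Tdrd7 by 0.63 ± 0.13 and Ly6e by 0.67 ± 0.15, with adjusted p = 0.00147, 0.00355 and 0.00445. Ly6e differed by 0.09 after quantile normalization, the opposite sign, and did not pass there. Without the second treated array 5 rose and 12 fell. Between withdrawal and untreated islets 0 of the 47 passed in limma and 3 had an unadjusted p under 0.05, where 8.75% of all genes did. The 3 were Tdrd7 at −0.41 ± 0.13, Lgals9 at −0.44 ± 0.15 and Cxcl11 at 0.75 ± 0.33, with adjusted p = 0.447, 0.504 and 0.652.

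**Figure D4:**
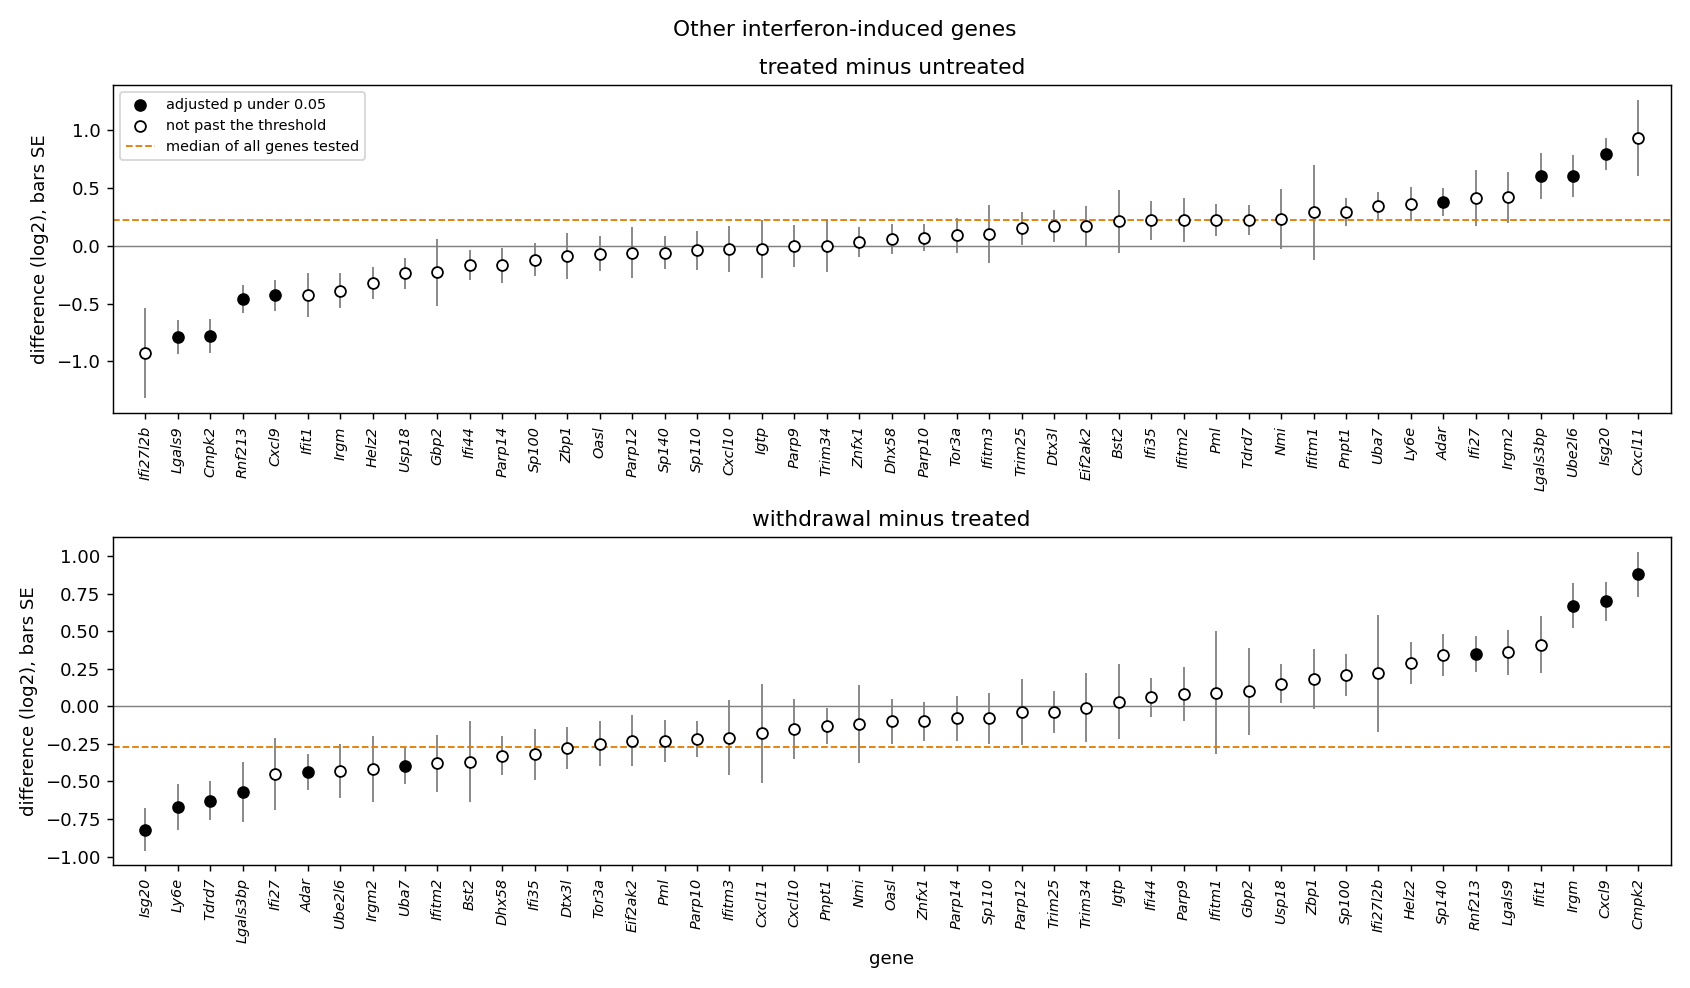
Log2 difference with SE for the 47 other interferon-induced genes tested, ordered by size, for treated minus untreated (top) and withdrawal minus treated (bottom); filled points passed the test and the dashed line is the median of all genes. In the top panel 4 genes passed on each side of 0, with Lgals9 and Cmpk2 lowest among them and Isg20 highest.

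The 3 interferon ligand genes measured, Ifnb1, Ifnk and Ifng, were all below the brightness limit, with group means of 3.94 to 4.03 for Ifnb1, 3.22 to 3.40 for Ifnk and 4.17 to 4.43 for Ifng. At such low signal these values do not show that the ligands were absent or equal between groups. Treated minus untreated was −0.03 ± 0.11 for Ifnb1, −0.01 ± 0.14 for Ifnk and −0.17 ± 0.10 for Ifng.

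Of 14 receptor and JAK-STAT genes tested, 3 rose and none fell between treated and untreated islets, where 24.0% of all genes rose, so the share was near that of all genes. Their median was 0.20, where that of all genes was 0.22. Socs3, a feedback inhibitor of JAK kinases, rose by 0.57 ± 0.16 (adjusted p = 0.0212), the phosphatase gene Ptpn2 by 0.75 ± 0.22 (adjusted p = 0.0266) and the kinase gene Jak1 by 0.43 ± 0.14 (adjusted p = 0.0423). After quantile normalization none rose, Jak1 was at −0.10, the opposite sign, and 1 fell, Ifnar2 at −0.32. Between withdrawal and treated islets the receptor chain Ifnar2 rose by 0.33 ± 0.12 (adjusted p = 0.0484) and the kinase gene Tyk2 fell by 0.37 ± 0.13 (adjusted p = 0.0322). Both passed after quantile normalization at 0.55 and −0.32, where 4 of the 14 rose and 1 fell. Of all genes 8.46% rose and 37.9% fell as deposited in this comparison, and 13.3% rose after quantile normalization. Between withdrawal and untreated islets none of the 14 passed in limma, and 2 had an unadjusted p under 0.05.

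The 5 other interferon regulatory factors tested did not pass between treated and untreated islets in limma, where 2 had an unadjusted p under 0.05, as did 44.4% of all genes. Irf3 was at 0.30 ± 0.11 (adjusted p = 0.0684) and Irf1 at 0.38 ± 0.16 (adjusted p = 0.0974). After quantile normalization these were 0.01 and 0.04. Irf3 fell by 0.41 ± 0.11 between withdrawal and treated islets (adjusted p = 0.0131) but not after quantile normalization, at −0.06. As deposited, 37.9% of all genes fell in that comparison. Between withdrawal and untreated islets 0 passed, with 1 at an unadjusted p under 0.05, Irf5 at 0.32 ± 0.13.

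Of 9 nucleic acid sensor and adaptor genes tested, 3 rose between treated and untreated islets and none fell, as deposited and after quantile normalization. Of all genes 24.0% rose as deposited. Fewer rose after quantile normalization, at 1603 of the 20694 tested probe sets against 4318 as deposited. With 9 genes neither count is read as particular to them. The signalling adaptor Traf3 measured 8.07, 8.09 and 8.06 on treated, 7.52, 7.38 and 7.46 on withdrawal and 7.55, 7.24 and 7.39 on untreated arrays, and rose by 0.68 ± 0.12 (adjusted p = 0.00357). The nuclease gene Trex1, which removes DNA from the cytosol, rose by 0.53 ± 0.12 (adjusted p = 0.00997), and Ticam1, the adaptor of the double-stranded RNA receptor TLR3, by 0.61 ± 0.16 (adjusted p = 0.0196). Between withdrawal and treated islets these 3 fell, by 0.62 ± 0.12 for Traf3, 0.65 ± 0.12 for Trex1 and 0.78 ± 0.16 for Ticam1, although Traf3 did not pass after quantile normalization (adjusted p = 0.0951). Tlr8, a receptor for single-stranded RNA, rose by 0.68 ± 0.14 (adjusted p = 0.00368). Of all genes 37.9% fell and 8.46% rose between withdrawal and treated islets as deposited. Between withdrawal and untreated islets none of the 9 passed in limma, and Tlr8 alone had an unadjusted p under 0.05, at 0.46 ± 0.14 (adjusted p = 0.437).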

How the data were processed

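RNA of 9 islet preparations was hybridised to Affymetrix rat expression arrays, 3 per group. The authors deposited 1 table of log2 values, a scale inferred from the values, and RMA and MAS5 are named per the submitters' processing notes, without roles or versions. The 57 control probe sets were left out. Symbols were updated through the gene table of GRCr8, used for names and neighbours only. Of 31042 probe sets, 20694 above the lowest 33.3% by mean were tested in limma 3.58.1 (R 4.3.3; lmFit, eBayes, a term per group, all 9 arrays). The threshold was a Benjamini-Hochberg adjusted p under 0.05. The fit was run on simulated data with independent noise of the same spread in every group. That check therefore does not cover the wider spread of the treated arrays. A gene was represented by its brightest probe set, with the mean over probe sets as an alternative. P-values set a difference between groups against the spread between arrays within groups. Whether that is a spread between single rats is not stated in the labels. The number of arrays limits the precision, and no detection calls were used.

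The members and gene lists were chosen with earlier results of these data known. Genes were named by rule: all members, up to 4 genes of each list with the smallest p per comparison, and the 8 nearest by likeness. Not all were printed. Deviations of same-numbered arrays correlated at −0.283 to 0.504. The 3 pairs of replicate 2 were all positive (0.221 to 0.504), but 4 of the 9 pairs were below 0, so the numbers were not taken as pairs. Offsets before logarithms were planned for linear values only and not run. Figures were drawn with matplotlib 3.10.9 in Python 3.11.15.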

Additional observations from a re-analysis of the deposited data

How the results depend on the processing

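Directions of the 10 genes between treated and untreated islets held in every alternative in which the gene was measured (Mx1, below the brightness limit, in fewer), but the counts of calls did not. Between treated and untreated islets, 5817 probe sets, 8 members and 8 other interferon-induced genes were called. The probe set count was 3557 after quantile normalization (45.1% of calls higher against 74.2%) and 3209 when the third group's arrays were not fitted. That fit called 2 members and 3 other genes, a filter on the lowest 50% left 4 members called, and array weights gave 14 other genes. Leaving out 1 array gave 2033 to 6319 probe sets, 2 to 7 members, 3 to 13 other genes and a members' median of −0.79 to −0.53. Between withdrawal and untreated islets, 33 probe sets and none of either gene group were called. Quantile normalization gave 87 probe sets and 1 member, array weights 3275, 1 member and 7 other genes, and the 6 arrays compared 494, 1 member and 2 other genes. Leaving out 1 array gave 7 to 398 probe sets, 0 to 1 member, 0 other genes and a median of −0.48 to −0.20. Between withdrawal and treated islets, 9057 probe sets, 3 members and 10 other genes were called. Quantile normalization gave 6032 probe sets (49.9% of calls higher against 25.5%), the filter on the lowest 50% 1 member and array weights 17 other genes. Leaving out 1 array gave 5587 to 9511, 2 to 5 and 7 to 17, with a median of 0.31 to 0.41.

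With the replicate number as a block, which the labels give only as a number, the counts were 6414 probe sets and 8 members (treated against untreated), 50 and 1 (withdrawal against untreated) and 9434 and 2 (withdrawal against treated). Chosen after seeing the data, quantile normalization without the second untreated array gave 1268 probe sets, 3 members and 4 other genes in the first comparison, 58 probe sets and a members' median of −0.12 (without Mx1) in the second, and 5988 probe sets in the third. Quantile normalization without a filter gave 73 in the second. Apart from the changes that come with fewer arrays or probe sets, the cause was not tested. Array weights also moved treated minus untreated to −0.95 for Slfn4, −0.27 for Irf7 and −0.28 for Oas1a. Dim signal limits Mx1, the dimmer probe sets of Mx2 and Slfn4 and the ligands.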
